A study of Mus musculus with 4 samples.

Results

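The 35 genes described here make or move cholesterol and fatty acids, or control that synthesis. The list holds known targets and regulators of the sterol regulatory element-binding proteins (SREBPs), and also the efflux pumps Abca1 and Abcg1. All 35 genes were found by gene name among the non-control probes of 4 single-colour microarrays of mouse RNA. They made up 66 of the 41174 probes and 35 of the 26736 named genes. The cells were IMS/N, a line of hepatic stellate cells from normal 129/Sv mice made immortal with SV40, and each group was 1 sample on 1 array, with no word on how many cultures it came from. The groups were cells given IL17A (recombinant murine protein), cells given ADSCmedia, cells given both, and untreated cells. ADSCmedia, written ADSC medium below, is medium taken from cultured adipose tissue-derived stem cells, which came from inguinal subcutaneous fat of male C57BL/6J mice aged 8 to 10 weeks. The study asked how the cells' gene expression differs with the cytokine and with this medium. Doses and times are not given in the sources used here, nor is what control medium, if any, the other cells received.

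SREBPs are made as membrane proteins of the endoplasmic reticulum, where the escort protein Scap carries them to the Golgi when sterols are low and the Insig proteins hold them back when sterols are high. After cleavage in the Golgi their front part enters the nucleus and turns on the genes of cholesterol synthesis, for which Srebf2 is best known, and of fatty acid synthesis, for which Srebf1 is best known. Sterol efflux pumps such as Abca1 and Abcg1 are driven by the liver X receptors instead, which respond to oxidised sterols. Hepatic stellate cells store lipid and retinyl esters when quiescent and lose these droplets when they become fibroblast-like.

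Nearly all of the 35 genes were lower on the arrays of cells that had ADSC medium, and with IL17A alone they were close to the untreated level. The median log2 difference was -0.73 for ADSC medium against untreated and -0.69 for both treatments against IL17A, with 33 of 35 genes below 0 in each. For IL17A the medians were -0.09 against untreated and -0.05 when added to medium. The list held both arms of the pathway. By the mean of both medium differences of the brightest probe, Acaca, Scap, Srebf1, Ebp and Fasn differed least, followed by Insig2 and Srebf2.

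With 1 array per group there is no replicate check, and no test was made. Levels are log2 processed signals after quantile normalization, and a gene is given by its brightest probe. A gene was called higher or lower at a difference of 2-fold, or 1.0 on the log2 scale. All 66 probes were well above background on all 4 arrays. A technical SD of log2 differences was taken from the spread among spots of the same probe within an array, over 245 non-control probes with 10 spots each. It was 0.0865 for levels of 7 or above (106 probes), 0.142 from 5 to 7 (15 probes) and 0.503 below 5 (124 probes). The error that the scanner software gives each signal was 10.0% for most of these probes, which puts the standard error of a gene's log2 difference at 0.204 to 0.206. Neither figure holds any variation between cultures, and the technical SD holds none between arrays or slides.

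The IL17A and untreated arrays lay on one slide and both medium arrays on another, so that a difference with medium and a difference between slides cannot be told apart, while IL17A was compared within a slide. Between 58.1% and 60.5% of the 43379 non-control spots of an array were well above background, and 0 were saturated. Of 11 stellate cell and fibroblast markers, 7 were well above background on all 4 arrays (Vim, Pdgfrb, Col1a1, Col1a2, Col3a1, Acta2 and Lhx2), Rgs5 and Hand2 on none, Lrat on 1 and Des on 3. Their summed signal was 101938 with medium against 131780 untreated, and 74670 with both treatments against 86311 with IL17A. This sum rested mostly on Vim, Col1a1 and Col1a2, and the markers did not all go one way. For medium alone Vim, Pdgfrb, Col1a1, Col1a2 and Col3a1 were lower, but Acta2 (11189 against 10775) and Lhx2 (261 against 189) were higher. With both treatments against IL17A, Vim (34866 against 33689) and Lhx2 (291 against 167) were higher, and Pdgfrb, Acta2 and the 3 collagens lower. None of the 4 hepatocyte markers was well above background on any array. Of the other cell types' markers, Cd68, Csf1r, Kdr, Stab2, Krt19, Krt7, Msln and Fabp4 were well above background on all 4 arrays, and Adgre1, Clec4f, Pecam1, Cdh5, Epcam, Upk3b, Adipoq and Plin1 on none. For medium alone against untreated, the summed signals were 10805 against 16785 for the mesothelial markers, 690 against 705 for the cholangiocyte, 102 against 69.0 for the macrophage, 32.7 against 32.5 for the endothelial and 130 against 140 for the adipocyte markers. With both treatments against IL17A, they were 7356 against 10184 for the mesothelial markers, 165 against 282 for the cholangiocyte, 121 against 87.6 for the macrophage, 24.9 against 28.2 for the endothelial and 174 against 338 for the adipocyte markers. The macrophage sum was thus higher with medium in both comparisons, and the mesothelial sum lower, but each rested mostly on 1 gene. Cd68 had 87.8 with medium against 56.5 untreated, and 85.1 with both against 60.2 with IL17A. Csf1r had 10.2 against 8.86, but 19.6 against 23.6 in the second comparison. Ptprc was well above background only with both treatments, at 13.3. The mesothelial sum was nearly all Msln. What part these markers have in the results was not tested. In RNA from whole cultures, fewer cells of a type and less RNA per cell cannot be told apart.

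Promoter sequences are shown for Abca1, Lss, Nsdhl and Idi1, which were 2-fold lower with medium both without and with IL17A, and for Hmgcs1, chosen after its letters were seen. They are RefSeq promoters of build GRCm38.p6 and run 300 bases, from 250 before the start site to 50 after it. Capitals mark the motifs searched on both strands, which were TCACNCCAC (the sterol regulatory element that SREBPs bind), CCAAT (the box of NF-Y, a factor that works beside SREBPs), CACGTG (an E-box), GGGCGG (the box of Sp1) and the element of the liver X receptors (the letters AGGTCA 2 times, 4 bases apart). No match of a motif overlapped that of another.
Abca1, chr4:53159846-53160145, minus strand: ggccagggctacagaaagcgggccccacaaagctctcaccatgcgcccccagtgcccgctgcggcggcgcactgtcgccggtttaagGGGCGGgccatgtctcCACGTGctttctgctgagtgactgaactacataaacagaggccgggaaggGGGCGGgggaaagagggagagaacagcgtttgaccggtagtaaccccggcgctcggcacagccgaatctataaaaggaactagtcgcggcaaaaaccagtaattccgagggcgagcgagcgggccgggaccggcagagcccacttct
Lss, chr10:76531355-76531654, plus strand: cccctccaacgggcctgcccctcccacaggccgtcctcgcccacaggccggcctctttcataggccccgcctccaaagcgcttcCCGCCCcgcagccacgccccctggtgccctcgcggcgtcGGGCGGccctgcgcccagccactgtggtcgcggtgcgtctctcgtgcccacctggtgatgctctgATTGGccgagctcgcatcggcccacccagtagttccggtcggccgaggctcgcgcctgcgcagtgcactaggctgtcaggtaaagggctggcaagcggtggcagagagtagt
Nsdhl, chrX:72918271-72918570, plus strand: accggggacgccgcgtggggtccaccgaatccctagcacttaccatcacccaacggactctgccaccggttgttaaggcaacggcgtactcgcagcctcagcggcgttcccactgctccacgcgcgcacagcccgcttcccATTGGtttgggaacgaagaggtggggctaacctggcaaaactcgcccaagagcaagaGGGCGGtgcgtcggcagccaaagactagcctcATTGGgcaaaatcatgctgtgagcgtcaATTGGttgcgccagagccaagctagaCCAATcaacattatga
Idi1, chr13:8885356-8885655, plus strand: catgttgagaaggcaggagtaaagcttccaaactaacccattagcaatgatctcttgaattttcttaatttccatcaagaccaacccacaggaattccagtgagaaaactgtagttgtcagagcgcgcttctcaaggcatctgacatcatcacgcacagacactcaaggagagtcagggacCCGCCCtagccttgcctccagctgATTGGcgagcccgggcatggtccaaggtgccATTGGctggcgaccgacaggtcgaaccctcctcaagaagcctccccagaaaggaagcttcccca
Hmgcs1, chr13:119690101-119690400, plus strand: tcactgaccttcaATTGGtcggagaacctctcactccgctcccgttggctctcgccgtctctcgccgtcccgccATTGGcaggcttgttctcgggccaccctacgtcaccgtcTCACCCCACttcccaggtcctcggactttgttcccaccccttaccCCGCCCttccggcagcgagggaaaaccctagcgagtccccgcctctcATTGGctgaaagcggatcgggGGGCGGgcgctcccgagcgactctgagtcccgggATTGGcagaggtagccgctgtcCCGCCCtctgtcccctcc

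The promoter table held 27 of the 35 genes, without Fdps, Fdft1, Sqle, Stard4, Abcg1, Scd1, Scd2 and Fads1. A gene was counted if any of its promoters held the motif, and all genes of the table were taken, whether or not expressed here. The CCAAT box stood in 21 of the 27 (77.8%), against 41.1% of the 27025 genes in the table. GGGCGG was found in 23 (85.2%), against 38.2% of all genes. CACGTG occurred in 6 (22.2%), against 8.09% of all genes. The sterol regulatory element in these exact letters stood in 1 of 27 (3.70%), the Hmgcs1 promoter, 137 bases before the start, against 1.44% of all genes. The element of the liver X receptors was in 0 of 27 and in 4 genes of the table (0.0148%). Among the promoters printed, Nsdhl and Hmgcs1 each hold 4 CCAAT boxes, Idi1 2, Lss 1 and Abca1 0. A match describes letters only, and so does its absence.

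**Figure D1:**
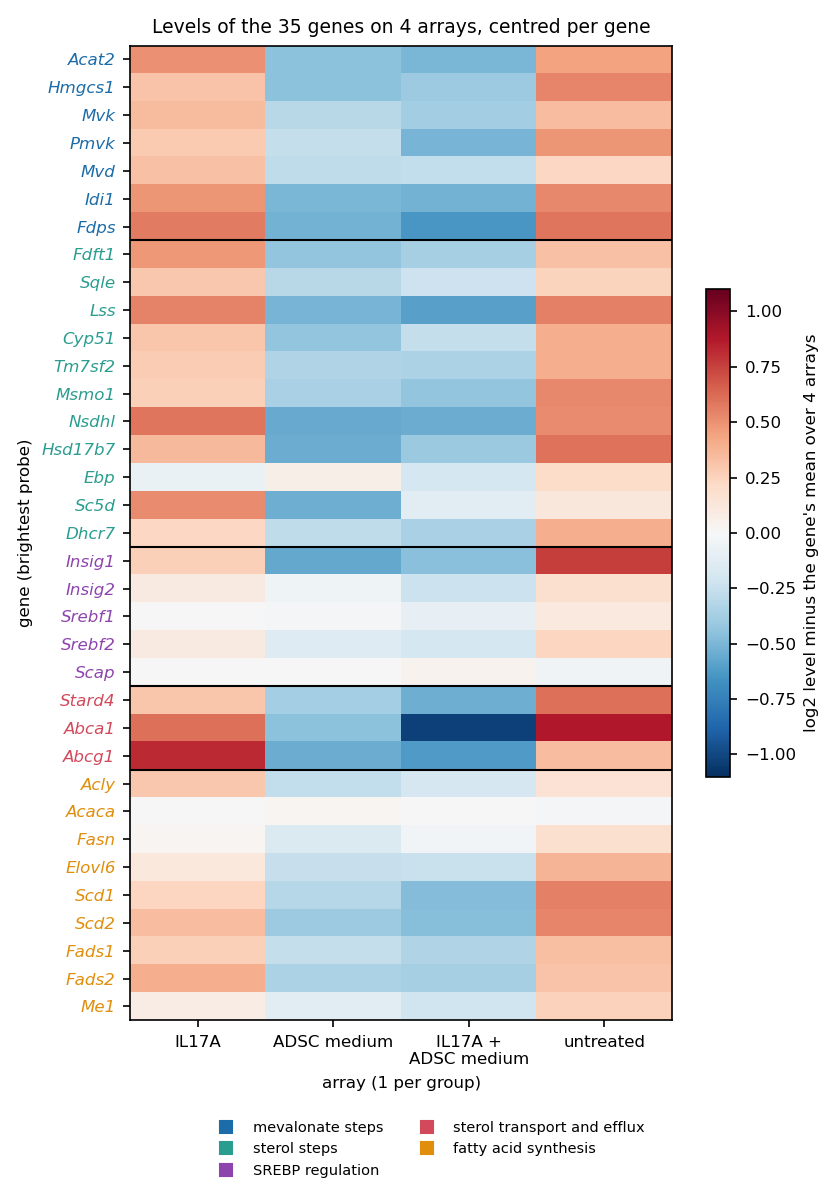
Log2 level of each of the 35 genes on the 4 arrays, minus that gene's mean over the arrays (colour), with genes in rows by role and the arrays in columns. The 2 medium columns are blue and the IL17A and untreated columns red for most rows, while Scap, Srebf1 and Acaca are almost white throughout.

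Among the 7 genes of the mevalonate steps, which build isoprenoid units from acetyl-CoA, the median log2 difference was -0.89 for medium alone and -0.80 for medium added to IL17A. Over all 35 genes, 7 were at least 2-fold lower with medium than untreated, against 2.97% of the 16106 genes measured there, and 7 with both treatments than with IL17A, against 3.11% of 15898. In each comparison 0 of the 35 were 2-fold higher, where 2.45% and 3.21% of genes were. The median over all genes measured was 0.04 for medium alone and 0.02 for medium added to IL17A, and 44.4% and 47.4% of genes lay below 0.

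Fdps, which joins isoprene units into farnesyl diphosphate, had a log2 level of 11.86 with medium against 12.97 untreated, and 11.74 with both treatments against 12.96 with IL17A. It was thus 2.16-fold and 2.32-fold lower in those comparisons, the largest differences of this group. Idi1, the isomerase that supplies the reactive isoprene unit, stood at 11.52 with medium against 12.55 untreated, and at 11.51 with both against 12.51 with IL17A. Its 2 medium arrays were nearly equal, as were its other 2 arrays, and the folds were 2.04 and 2.01. Hmgcs1, which makes HMG-CoA, had 12.03 with medium against 13.02 untreated, and 12.09 with both treatments against 12.79 with IL17A. The difference was -0.99 without IL17A, just short of 2-fold, and -0.71 with it.

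Acat2, a cytosolic thiolase at the start of the pathway, had 6.76 with medium against 7.66 untreated, and 6.71 with both against 7.72 with IL17A. The second difference, at 2.01-fold, was past the threshold and the first, at 1.86-fold, was not. Its probe matches RefSeq transcripts of Acat2 and of Acat3, so its signal may come from either gene. Pmvk, the phosphomevalonate kinase, was at 12.00 with medium against 12.75 untreated, and at 11.76 with both against 12.56 with IL17A. Mvk, the mevalonate kinase, had 9.47 with medium against 10.11 untreated, and 9.39 with both against 10.13 with IL17A. All 3 were lower on both medium arrays than on either of the others. Mvd, which decarboxylates mevalonate diphosphate, differed least of the 7, with 10.57 in medium against 11.07 untreated and 10.58 with both treatments against 11.17 with IL17A.

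The 11 genes from squalene to cholesterol had a median log2 difference of -0.76 for medium alone and -0.63 for medium added to IL17A, and all 11 were below 0 in both. Lss, which closes squalene epoxide into the first sterol, had 9.0 with medium against 10.07 untreated, and 8.91 with both against 10.06 with IL17A. Nsdhl, a dehydrogenase that removes carbon from the sterol ring, had 9.18 with medium against 10.26 untreated, and 9.20 with both against 10.33 with IL17A. By their brightest probes these 2 genes were 2-fold lower in both comparisons. The folds were 2.09 and 2.10 for medium alone, and 2.21 and 2.19 for medium added to IL17A. The other Lss probes, both RefSeq-matched, had -1.15 and -0.85 for medium alone, and -0.66 and -0.98 for medium added to IL17A. Neither was past 2-fold in both. Hsd17b7, the ketoreductase that acts after Nsdhl, had 11.05 with medium against 12.19 untreated, and 11.18 with both against 11.95 with IL17A. It was 2.20-fold lower in the first comparison and 1.70-fold in the second.

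Earlier in the sterol branch, Fdft1, the squalene synthase, had 9.92 with medium against 10.68 untreated, and 9.99 with both against 10.83 with IL17A. Sqle, the squalene epoxidase, had 12.41 with medium against 12.97 untreated, and 12.49 with both against 13.02 with IL17A. Cyp51, which demethylates lanosterol, had 8.44 with medium against 9.27 untreated, and 8.61 with both against 9.18 with IL17A. Its brightest probe thus gave -0.83 for medium alone and -0.56 for medium added to IL17A. Its other probes, RefSeq-matched as well, gave -0.62 and -0.99, then -0.90 and -1.07, the last 2.10-fold lower. By their brightest probes, Fdft1, Sqle and Cyp51 each had the medium arrays lowest, by between 0.48 and 0.69 to the nearer of the other arrays. Msmo1, a methylsterol oxidase, had 13.55 with medium against 14.44 untreated, and 13.47 with both against 14.17 with IL17A. Tm7sf2, a sterol reductase, had 8.96 with medium against 9.69 untreated, and 8.94 with both against 9.56 with IL17A. Both enzymes had the medium arrays lowest by about the same margin, 0.62 and 0.61.

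At the end of the branch, Dhcr7, the reductase of the last step to cholesterol, had 11.50 with medium against 12.18 untreated, and 11.42 with both against 12.01 with IL17A. Sc5d, a sterol desaturase, had a normalized signal, on the linear scale, of 2772 with medium against 4395 untreated, and of 3724 with both against 5783 with IL17A. Its log2 differences were -0.66 and -0.63. Sc5d was higher with IL17A on both slides, by 0.40 against untreated and by 0.43 when added to medium, both under 2-fold. Fdft1, Sqle and Nsdhl were also above 0 in both, by 0.01 to 0.15. Ebp, the sterol isomerase, had 14.25 with medium against 14.39 untreated, and 14.00 with both against 14.11 with IL17A. It was the only 1 of the 11 whose medium arrays were not both below the other arrays.

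**Figure D2:**
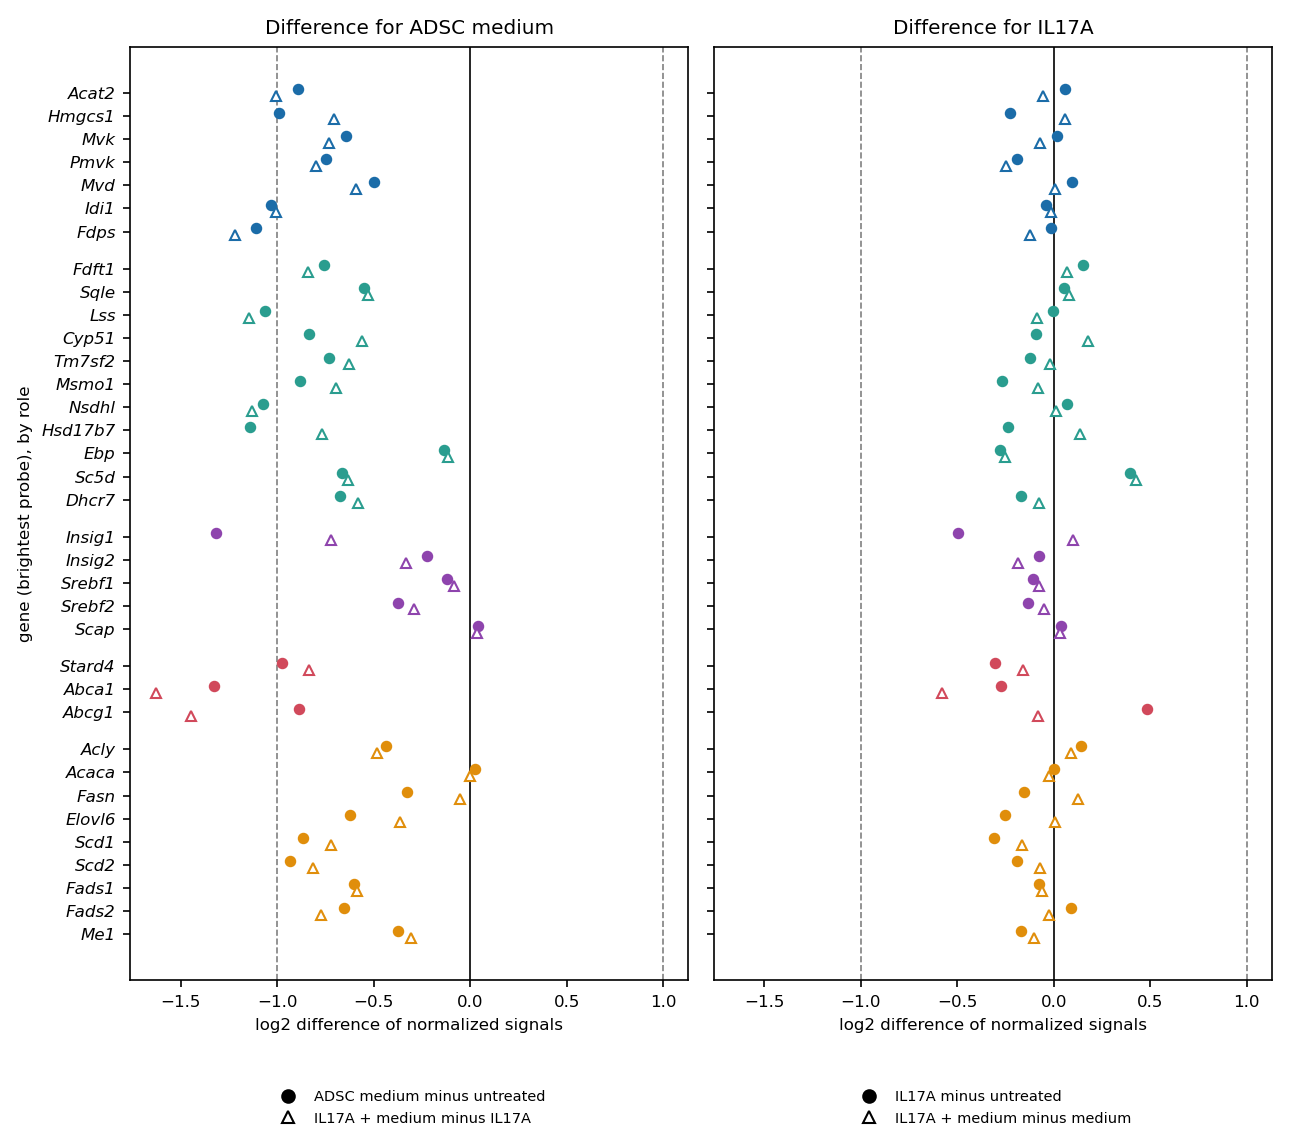
Log2 differences of the 35 genes (one row each, by role), for medium on the left (filled circles, ADSC medium minus untreated; open triangles, IL17A plus medium minus IL17A) and for IL17A on the right (filled circles, IL17A minus untreated; open triangles, IL17A plus medium minus medium). Dashed lines mark 2-fold; on the left 33 of 35 genes lie below 0 in both comparisons, and on the right no gene reaches 2-fold.

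The 5 regulators differed less as a group, with medians of -0.22 for medium alone and -0.29 for medium added to IL17A. By the brightest probes, Insig1 was the exception. Insig1, the retention protein that is itself an SREBP target, had 8.13 with medium against 9.45 untreated, and 8.23 with both against 8.95 with IL17A. Its difference was -1.32 for medium alone (2.49-fold lower) and -0.72 for medium added to IL17A. With IL17A alone it was -0.50 against untreated, the lowest of the 35 genes there, and its second probe gave -0.29. The gap between the 2 IL17A differences, 0.60, was the highest of the list.

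Insig2, the related retention protein, had 10.61 with medium against 10.83 untreated, and 10.42 with both against 10.76 with IL17A. Srebf2 had 13.79 with medium against 14.17 untreated, and 13.74 with both against 14.03 with IL17A. Srebf1 had 13.26 with medium against 13.38 untreated, and 13.19 with both against 13.27 with IL17A. By their brightest probes these 3 had both medium arrays lowest, by only 0.15, 0.24 and 0.01 to the nearer of the other arrays. The second Insig2 probe, also RefSeq-matched, differed more. It gave -0.69 for medium alone and -1.02 for medium added to IL17A (2.03-fold lower), where the brightest gave -0.22 and -0.33. Scap had 12.63 with medium against 12.59 untreated, and 12.67 with both against 12.63 with IL17A. This spread lay within the technical SD of a difference, which comes from spots within an array. The transcripts of the SREBPs say nothing of how much protein was cleaved, which was not measured.

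The 3 genes of sterol transport and efflux had the lowest medians, -0.98 for medium alone and -1.45 for medium added to IL17A. Abca1, the pump that loads cholesterol onto apolipoproteins, had 6.71 with medium against 8.03 untreated, and 6.13 with both against 7.76 with IL17A. It was 2.51-fold lower for medium alone, 3.10-fold lower for medium added to IL17A and 3.75-fold lower with both treatments than untreated, the lowest difference of the list in all 3. Abcg1, which passes cholesterol to lipoprotein particles, had 8.34 with medium against 9.22 untreated, and 8.26 with both against 9.70 with IL17A. It was 0.48 higher with IL17A than untreated and 0.08 lower when IL17A was added to medium, so that the medium difference was -0.89 without IL17A and -1.45 (2.73-fold lower) with it. Stard4, a carrier of cholesterol between membranes and an SREBP target, had 10.73 with medium against 11.70 untreated, and 10.56 with both against 11.40 with IL17A. It came just short of 2-fold for medium alone, at 1.97-fold.

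Within the 9 genes of fatty acid synthesis the medians were -0.60 for medium alone and -0.48 for medium added to IL17A. In either comparison 0 of the 9 were 2-fold lower. Over all genes 2.97% and 3.11% were, so a count of 0 among so few genes says little. Scd2, a desaturase that makes monounsaturated fatty acids, had 14.56 with medium against 15.49 untreated, and 14.49 with both against 15.30 with IL17A. Scd1, a desaturase of the same family, had 10.56 with medium against 11.42 untreated, and 10.39 with both against 11.11 with IL17A. These 2 differed most in this group for medium alone, and both were 2-fold lower with both treatments than untreated, by 2.01-fold and 2.04-fold. Fads2, which starts the making of polyunsaturated fatty acids, had 9.63 with medium against 10.29 untreated, and 9.61 with both against 10.38 with IL17A. Fads1, the desaturase of a later step, had 10.26 with medium against 10.86 untreated, and 10.20 with both against 10.79 with IL17A. Both desaturases were lower on both medium arrays than on the others.

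Elovl6, which lengthens palmitate, had 11.32 with medium against 11.94 untreated, and 11.33 with both against 11.69 with IL17A. Acly, which makes cytosolic acetyl-CoA from citrate, had 9.67 with medium against 10.10 untreated, and 9.76 with both against 10.24 with IL17A. Me1, the malic enzyme that supplies NADPH, had 9.91 with medium against 10.29 untreated, and 9.81 with both against 10.12 with IL17A. These differences were all under 2-fold, and by the brightest probes Elovl6 at -0.62 was past 1.5-fold for medium alone. The second Me1 probe, which is not RefSeq-matched, was also past it, at -0.76 where the brightest gave -0.37. Fasn, the fatty acid synthase, had 15.21 with medium against 15.54 untreated, and 15.34 with both against 15.39 with IL17A. Acaca, the acetyl-CoA carboxylase that commits carbon to fatty acids, had 8.61 with medium against 8.58 untreated, and 8.58 on the arrays with both treatments and with IL17A. For medium alone the 2 Fasn probes gave -0.33 and -0.34, and the 5 Acaca probes ran from -0.32 to 0.12. By their brightest probes, the 2 enzymes at the core of fatty acid synthesis differed less than the desaturases beside them.

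The 2 medium comparisons share no array, although each set slide 2 against slide 1. Both medium arrays were below both of the other arrays in 32 of the 35 genes (91.4%), against 3370 of 14497 genes well above background on all 4 arrays (23.2%). The exceptions were Ebp, Scap and Acaca. Over the 35 genes the 2 medium differences had a Pearson correlation of 0.859, and over 14484 genes one of 0.521, given as descriptions across genes, which share arrays and slides. At a threshold of 1.5-fold, 24 genes were lower for medium alone, against 7.95% of genes measured, and 22 for medium added to IL17A, against 8.86%, and 21 were past it in both, as were 474 of 14484 genes. The 5 genes 2-fold lower in both by their brightest probe were Abca1, Fdps, Lss, Nsdhl and Idi1, and over all genes 154 of 14484 were. The counts past 2-fold move with the processing: 2 of 35 for medium alone with arrays scaled to their median, and 4 of 35 for medium added to IL17A with the mean of a gene's probes, although the list's median stayed below 0 in both cases.

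**Figure D3:**
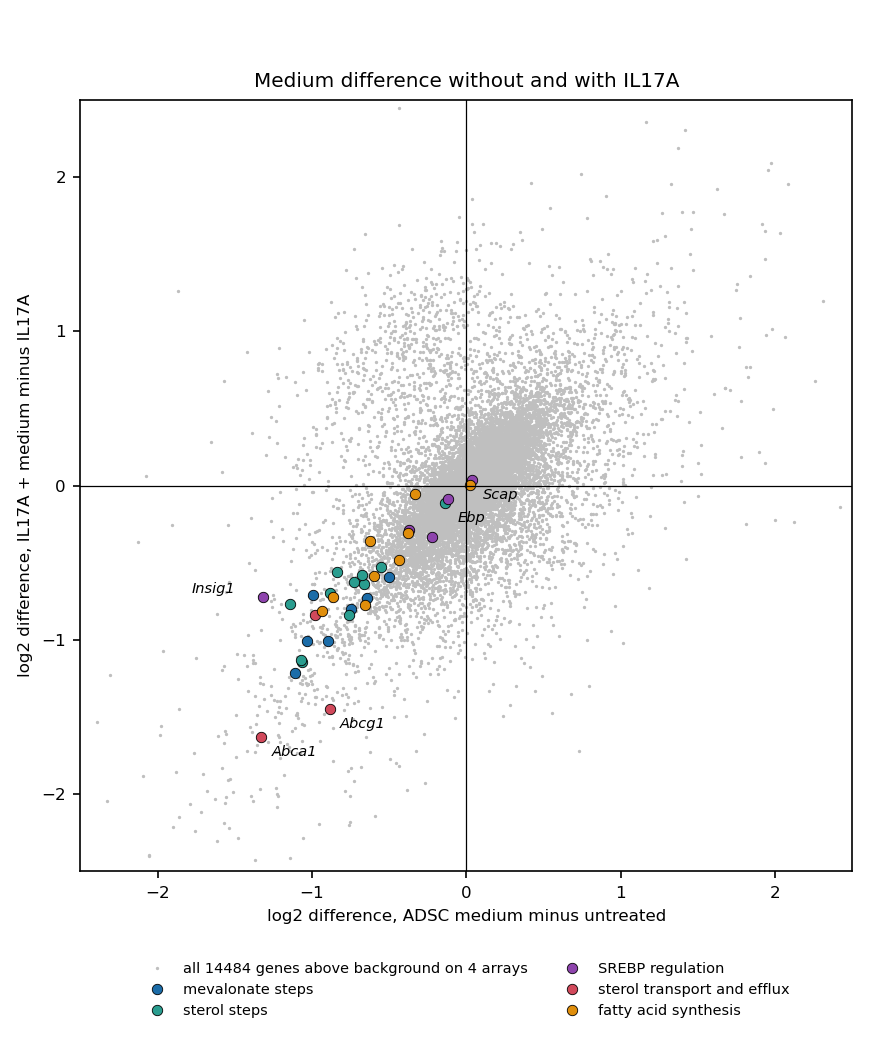
Log2 difference for medium without IL17A (x axis) and with IL17A (y axis), for the 35 genes coloured by role over 14484 genes well above background on all 4 arrays (grey), 25 of which lie outside the plotted range. The 35 genes lie along the lower left, with Abca1 and Abcg1 lowest for medium added to IL17A and Scap and Acaca beside the origin.

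With both treatments against untreated, which adds IL17A and medium and also crosses slides, 10 of the 35 genes were 2-fold lower, against 4.28% of 16248 genes, and 0 were higher, against 3.39%. The median was -0.72, and 23 genes were past 1.5-fold lower, against 10.5% of genes. By their brightest probes, those past 2-fold were Abca1, Fdps, Lss, Insig1, Stard4, Nsdhl, Idi1, Scd1, Scd2 and Hsd17b7. Some other RefSeq-matched probes of these genes fell short, for Stard4 (-0.74 and -0.50), Hsd17b7 (-0.82), Nsdhl (-0.94) and Lss (-0.99). The unmatched Fdps probe had -0.02. Dimmer RefSeq-matched probes of Hmgcs1 (-1.42), Cyp51 (-1.24) and Insig2 (-1.02) were past 2-fold. This comparison shares an array with each of those above, so its values are not separate evidence.

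IL17A alone gave 0 of 35 genes past 2-fold in either direction, where 2.29% of 15874 genes were lower and 2.17% higher. Added to medium it again gave 0, where 1.82% of 16088 genes were lower and 2.86% higher. Of the 35 genes 23 were below 0 for IL17A alone and 22 for IL17A added to medium, where 49.7% and 56.2% of all genes were. Of the 35, 11 had opposite signs in the 2 comparisons, and so did 5448 of 14484 genes. Differences ran between -0.50 (Insig1) and 0.48 (Abcg1) for IL17A alone, and between -0.58 (Abca1) and 0.43 (Sc5d) when it was added to medium. The IL17A difference with medium minus that without it had a median of 0.02 over the 35 genes and of -0.03 over 14484 genes, and ran from -0.56 (Abcg1) to 0.60 (Insig1). The sign of the list's median for IL17A alone was not stable, as it was 0.16 when arrays were scaled to their median, where the median of all genes was 0.20.

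Probes of a gene did not always give the same direction. Of the 35 genes, 20 had more than 1 probe, and a difference of opposite sign between probes, by 0.5 or more, was seen in 5 of these 20 genes for medium added to IL17A, in 4 for IL17A added to medium, in 3 for IL17A alone and in 0 for medium alone. Fdps and Nsdhl are shown by their sequences, because probes of different parts of each gene disagree on the arrays with both treatments and with IL17A. Each probe is 60 bases long, and coordinates are those of the array files in build mm9, with no exon annotation of that build at hand.
Fdps, RefSeq-matched probe, chr3:88898812-88898952, minus strand: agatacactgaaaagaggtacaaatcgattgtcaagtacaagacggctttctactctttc
Fdps, unmatched probe, chr3:88903026-88903085, minus strand: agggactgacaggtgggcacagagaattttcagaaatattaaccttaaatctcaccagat
Nsdhl, RefSeq-matched probe, chrX:70200532-70201713, plus strand: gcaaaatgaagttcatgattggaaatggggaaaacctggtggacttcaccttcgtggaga
Nsdhl, unmatched probe, chrX:70186412-70186471, plus strand: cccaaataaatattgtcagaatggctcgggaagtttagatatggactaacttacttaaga

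The RefSeq-matched probes shown span 141 and 1182 bases of genome with their 60 bases, so that each crosses a gap. The unmatched probes lie in 1 unbroken stretch. For Nsdhl the matched probe with the widest span was picked to be shown, so this contrast comes in part from the choice. Its other matched probes span 60 and 63 bases, and the one that spans 60 is the brightest and gives the Nsdhl levels above. The unmatched Fdps probe had 6.94 with medium against 8.22 untreated, and 8.20 with both treatments against 7.61 with IL17A. It went with the bright probe for medium alone, at -1.28, and against it for medium added to IL17A, at 0.59 where the bright probe had -1.22. The unmatched Nsdhl probe had 5.77 with medium against 7.15 untreated, and 6.61 with both against 6.50 with IL17A. Its differences were -1.38 and 0.12, where the 3 RefSeq-matched probes of Nsdhl lay between -1.07 and -0.86 and between -1.13 and -0.92. With the mean of all probes of a gene, the difference for medium added to IL17A would be -0.31 for Fdps and -0.76 for Nsdhl, and neither is then past 2-fold.

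Hmgcs1 and Acly had a probe of the same kind. The unmatched Hmgcs1 probe had 2.77 with medium against 4.13 untreated, and 4.01 with both treatments against 3.76 with IL17A, all at a dim level where the technical SD is 0.503. Its differences were -1.37 and 0.25, whereas the 2 matched probes had -0.99 and -1.19, then -0.71 and -1.32. The unmatched Acly probe, also dim, had 3.51 with medium against 4.30 untreated, and 4.21 with both against 4.07 with IL17A. Its differences were -0.79 and 0.15, against -0.43 and -0.48 for the matched probe. The unmatched Sc5d probe had -0.61 and -0.11, against -0.66 and -0.63.

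In these 5 genes the unmatched probe stood lowest with medium alone, and was higher when IL17A was added to medium, by 1.26 for Fdps, 1.24 for Hmgcs1, 0.84 for Nsdhl, 0.70 for Acly and 0.64 for Sc5d. The other 4 of the 9 unmatched probes did not share this. For IL17A added to medium the Me1 probe had -0.10, the 2 Srebf2 probes, of which 1 is its brightest, -0.05 and 0.20, and the Acaca probe 0.05. For medium added to IL17A these 4 were below 0, at -0.89 for Me1, -0.29 and -0.16 for Srebf2 and -0.23 for Acaca. Over the whole array the 2 kinds of probe also differed. For IL17A added to medium, 4340 unmatched probes well above background on all 4 arrays had a median of 0.09 and an upper quartile of 0.65, whereas 18668 RefSeq-matched probes had a median of -0.05 and an upper quartile of 0.06. Among the probes of the 35 genes, 57 were matched and 9 were not. The matched probes had medians of -0.67 for medium alone and -0.72 for medium added to IL17A, with 53 of 57 below 0 in each. The unmatched probes had medians of -0.76 and -0.11, with 9 and 5 of 9 below 0.

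Acaca and Stard4 disagreed among their own RefSeq-matched probes. For IL17A alone, the Acaca probes ran from -0.60 to 0.00, and 1 of them, with 5.06 for IL17A against 5.67 untreated, then had 5.70 with both treatments against 5.34 with medium. A dimmer Acaca probe had 4.58 with both treatments against 5.10 with medium, the opposite way. The other 3 Acaca probes, 1 of them unmatched, lay between -0.14 and 0.05 for IL17A in both comparisons. For medium added to IL17A the 5 probes, from bright to dim, gave 0.00, 0.16, 0.64, -0.23 and -0.16. The 3 Stard4 probes gave -0.30, 0.19 and 0.37 for IL17A alone, but -0.98, -0.56 and -0.45 for medium alone and -0.84, -0.93 and -0.87 for medium added to IL17A.

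**Figure D4:**
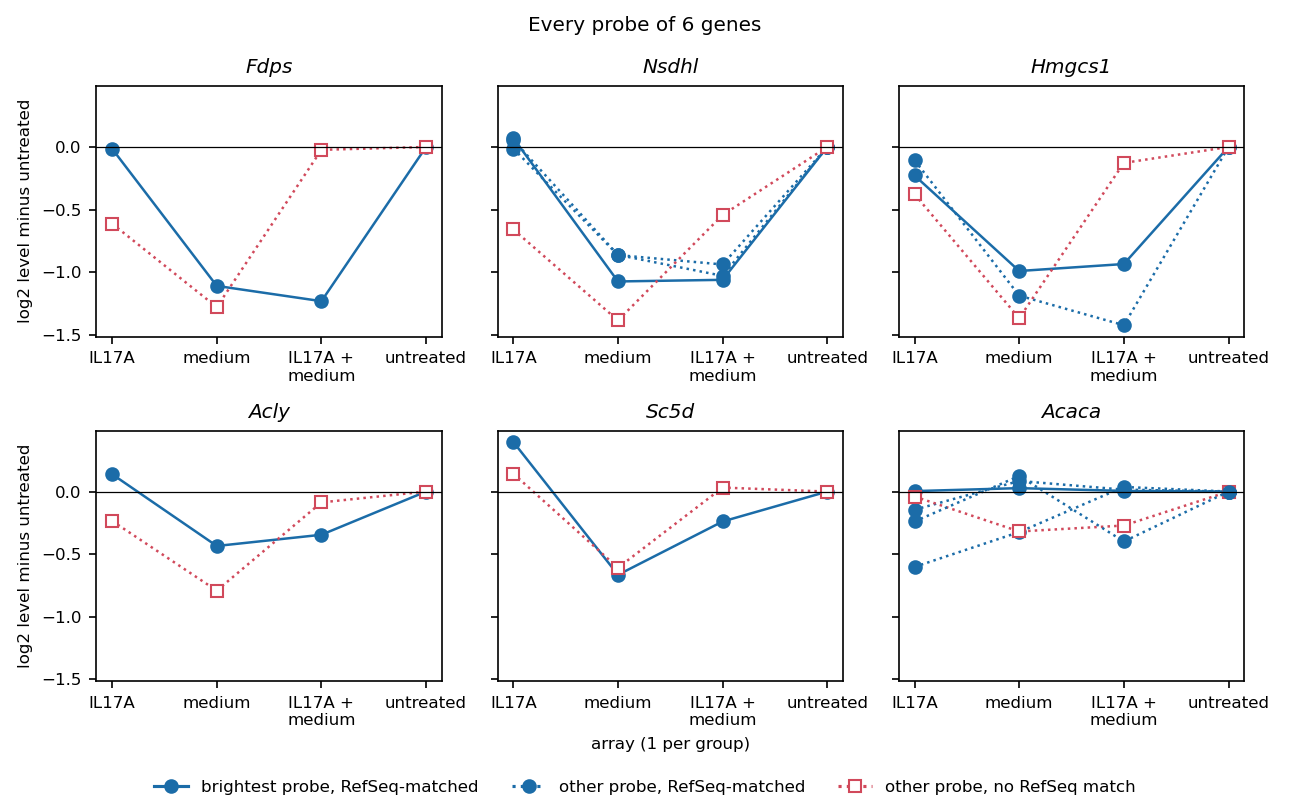
Log2 level minus the untreated level for every probe of 6 genes on the 4 arrays (x axis), with filled circles for RefSeq-matched and open squares for unmatched probes, and lines that only join a probe's points. Open squares for Fdps, Nsdhl, Hmgcs1, Acly and Sc5d lie low with medium and higher with both treatments, where the filled circles of those genes lie below them.

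Other genes of lipid metabolism were taken from a list of 40, of which 39 were measured. With medium alone 3 of the 39 (7.69%) were 2-fold lower and 0 higher, against 2.97% and 2.45% of all genes measured. Of the 39, 27 (69.2%) were below 0, against 44.4% of all genes, and the median was -0.30. For medium added to IL17A 4 (10.3%) were lower and 0 higher, against 3.11% and 3.21% of all genes. There 30 (76.9%) were below 0, against 47.4% of all genes, and the median was -0.25. Both medians were nearer to 0 than those of the 35 genes. Fabp5, a fatty acid carrier, had 4.62 with medium against 6.02 untreated, and 4.68 with both against 6.25 with IL17A. Lpin1, a phosphatase of triglyceride synthesis, had 7.02 with medium against 8.40 untreated, and 6.99 with both against 8.14 with IL17A. Idh1, a cytosolic source of NADPH, had 6.42 with medium against 7.66 untreated, and 6.30 with both against 7.49 with IL17A. These 3 were 2-fold lower in both comparisons. Acss2, which makes acetyl-CoA from acetate, joined them for medium added to IL17A, with 6.24 for both treatments against 7.41 with IL17A, and had 6.72 with medium against 7.46 untreated.

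For IL17A alone, 2 of the 39 genes of that list were 2-fold higher and 0 lower, against 2.17% and 2.29% of all genes. When IL17A was added to medium 1 was higher, against 2.86%. Ch25h, which makes the oxysterol hydroxycholesterol, had 6.48 with IL17A against 4.82 untreated, and 6.30 with both treatments against 5.18 with medium. It was 2-fold higher in both IL17A comparisons, and also with both treatments against untreated, at 1.48. Fabp4, a fatty acid carrier of adipocytes and macrophages, had 8.38 with IL17A against 7.06 untreated, and 7.39 with both against 6.89 with medium. Its difference was 1.32 for IL17A alone and 0.51 when IL17A was added to medium. With both treatments against untreated, 4 of the 39 (10.3%) were 2-fold lower, against 4.28% of all genes. They were the 4 named for medium added to IL17A.

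The authors deposited 2 lists of probes, made from the same arrays, so that they are not independent of the values above, and their threshold is not stated there. In the authors' deposited table of probes higher with IL17A and lower with both treatments, 19 of the 66 probes were present (28.8%), which is 1.59% of the 1193 probes in it. That authors' deposited table takes in 2.90% of all probes on the array. Probes of Acat2, Pmvk, Idi1, Fdps, Fdft1, Lss, Cyp51, Msmo1, Nsdhl, Hsd17b7, Sc5d, Dhcr7, Insig1, Stard4, Abca1, Abcg1, Scd1, Scd2 and Fads2 were in the authors' deposited table. The other authors' deposited table, of 861 probes higher with IL17A than untreated, held 0 of the 66, where it takes in 2.09% of all probes.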

How the data were processed

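Total RNA of 4 samples was measured on 4 arrays, 1 per group as the titles give them, with Cy3 in 1 colour. Per the file headers, the arrays are an Agilent mouse design with probe positions on mm9, and the deposited intensity values are processed signals, background-subtracted and detrended within an array. The score columns deposited beside them take the values 0 and 1 and mark spots that are well above background, saturated or outliers. The authors deposited 2 other tables, which hold probe IDs without values. Per the series' design text the authors applied quantile normalization, and the submitters' processing notes name R 3.5.1.

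Control spots and 91 to 126 outlier spots per array were left out. Log2 processed signals were quantile normalized over 4 arrays, spots averaged per probe, and a gene given by the brightest of the probes that carry its name in the files. A gene was measured in a comparison if its probe was well above background on at least 1 of its 2 arrays, and called at 2-fold when that held on the brighter array, with a dim side held at the lowest level well above background on its array. No p-value was computed, and the number of arrays limits the precision. Probes were matched to RefSeq accessions of the GRCm38.p6 gene table. The members, roles and lists were chosen with earlier results of these data known. The text names all members, other pathway genes past 2-fold, and probes that disagree in sign by 0.5 or more. The calling was tested only on simulated data with spot noise and changes larger than 2-fold, without variation between cultures or slides. Tools were Python 3.11.15, pandas 2.3.3, NumPy 2.4.6, matplotlib 3.10.9, R 4.3.3 and limma 3.58.1, the last for normexp with an offset of 50. Alternatives were 75th percentile and median scaling, normexp, the mean of probes, RefSeq-matched probes only, other filters on dim probes and a 1.5-fold threshold. A few genes of the pathway list are counted but not reported by name here.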

Additional observations from a re-analysis of the deposited data

How the results depend on the processing

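The median of the 35 genes stayed below 0 for medium alone, for medium added to IL17A and for both treatments against untreated under all 7 alternatives of scaling, background, probe choice and filter. Median scaling moved medians most, to -0.47 for medium alone (all genes 0.26), -0.91 for medium added to IL17A (all genes -0.16), 0.16 for IL17A alone (all genes 0.20), -0.28 for IL17A added to medium (all genes -0.24) and -0.47 for the difference of differences. Relative to all genes the medium medians were then -0.73 and -0.76, against -0.77 and -0.72 under quantile normalization. Single genes were below 0 in every setting in 29 of 35 for medium alone, 33 for medium added to IL17A and 33 for both treatments against untreated, but in only 7 and 19 for IL17A alone and added to medium. The count of 2-fold lower genes was 2 under median scaling for medium alone, and 11 under median scaling and 4 with the mean of probes for medium added to IL17A. It was 6 with the mean of probes for both treatments against untreated. At 1.5-fold the 3 counts were 24, 22 and 23. Taking the mean of probes puts the dim and unmatched probes of Fdps and Hmgcs1 on a par with the bright ones. Under normexp the share of all genes 2-fold lower dropped to 0.683% for medium alone and 0.761% for medium added to IL17A, while 7 and 6 of the 35 genes were still called. With 75th percentile scaling the calls over all genes split into 654 lower and 269 higher for medium alone, against 478 and 394 in the main setting, 372 and 774 for medium added to IL17A, against 494 and 511, 534 and 263 for IL17A alone, against 363 and 345, and 172 and 725 for IL17A added to medium, against 293 and 460. The cause was not tested. Leaving out a replicate was not possible with 1 array per group, and the slide could not be made a block because each slide holds 1 level of medium. No paired analysis was possible because no group has more than 1 array. Dim probes, below a log2 level of 5, cannot show differences smaller than their technical SD of 0.503.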
